A study of Mus musculus with 12 samples.

Results

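Crystallin genes were followed in polyribosome-bound RNA of rods (Rod-TRAP, called rods) and in total retinal RNA (input, called retina) of mice with and without Pkm2 in rods. The 10 genes were taken by symbol from the 56748 genes of the table and form 4 groups by family. These are the alpha crystallins Cryaa and Cryab, the acidic beta crystallins Cryba1, Cryba2 and Cryba4, the basic beta crystallins Crybb1, Crybb2 and Crybb3, and the gamma crystallins Crygs and Crygn. Control mice carried RiboTag, the i75-Rod-Cre transgene, which expresses Cre from a rhodopsin promoter, and 1 floxed Pkm2 allele, so that their rods could also lose 1 copy. Pkm2 Rodko mice carried the same RiboTag and Cre with both Pkm2 alleles floxed. Each of the 4 groups (control rods, Rodko rods, control retina, Rodko retina) held 3 libraries, numbered 1 to 3 in the labels. Their age is 2 months in the study's methods and 2 weeks in the series description. Tissue had been exposed to cycloheximide by perfusion, which holds ribosomes on their mRNA, and frozen before polyA RNA was isolated. The labels do not say whether the 3 libraries of a group came from separate mice, so p-values measure the spread between these libraries.

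Crystallins are the abundant soluble proteins of the eye lens, where they give the fibre cells their transparency and refractive power. The alpha crystallins are small heat shock proteins that bind unfolding proteins, and Cryab is also widely expressed outside the lens, in glia and muscle among others. The beta and gamma crystallins share a common fold and are best known as structural proteins of the lens, although transcripts of several have been found in the retina. In the lens, crystallin genes are switched on by transcription factors such as Pax6, Maf, Prox1 and Sox2, and Maf proteins bind promoter elements with the core TGCTGA.

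Library totals ranged from 13458890 to 22790074 reads. Values are size-factor scaled reads, set by the authors within each fraction, so that rod and retina values are on separate scales. A library with 0 reads allows up to 3 reads, which is between 0.132 and 0.223 CPM (reads per 1e6 library reads), and such limits cover counting error only. Pkm, the targeted gene, fell in Rodko rods (log2 difference -1.20, SE 0.08, limma adjusted p = 5.4e-05) and in Rodko retina (-0.65, SE 0.07, limma adjusted p = 0.0219), with no overlap between genotypes. Markers of rods were higher in rods for 12 of 12 genes (median log2 difference 1.89), beside 27.1% of all genes. Markers of the other retinal cells were lower in rods for 9 of 9 cone, 8 of 9 bipolar, 9 of 9 Müller glia, 6 of 6 amacrine, 4 of 4 horizontal and 10 of 10 ganglion cell genes. The same held for 8 of 8 pigment epithelium, 6 of 6 endothelial, 7 of 7 microglia and 5 of 5 red blood cell genes, beside 42.5% of all 25584 genes tested. None of the markers of these 11 cell types passed the limma threshold between genotypes in rods or in retina, where 0.0194% and 0.00391% of all genes did. In rods 4 of 9 bipolar, 4 of 9 Müller glia and 3 of 6 amacrine genes had an unadjusted limma p under 0.05. So did 2 of 10 ganglion cell, 2 of 6 endothelial and 1 of 4 horizontal genes, beside 4.77% of all genes. The other 5 lists held 0 such genes in rods. Median log2 differences in rods were -0.48 for bipolar, -0.34 for Müller glia, -0.46 for amacrine, -0.40 for ganglion cell, -0.28 for endothelial and -0.73 for red blood cell markers. They were -0.11 for horizontal, -0.10 for cone, -0.05 for pigment epithelium, -0.13 for microglia and 0.04 for rod markers. In retina 2 of 9 bipolar, 1 of 9 Müller glia and 1 of 12 rod genes had an unadjusted limma p under 0.05, beside 4.18% of all genes.

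Before the levels, the libraries that stood apart must be named. In 8 of the 10 genes (all but Cryab and Crygn, a division made after the values were seen) control retina 1 and Rodko retina 2 held most of the retinal reads. In rods, control rods 1 was the highest library for 7 of these genes (Crybb1 had 0 reads in control rods), but Rodko rods 2 was the highest Rodko library for only 4, namely Cryaa, Cryba1, Cryba4 and Crybb2. Each comparison is therefore also given without these 4 libraries, as an alternative chosen after seeing the data.

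Promoters are shown as a description of the genes. RefSeq windows (GRCm38.p6) of 250 bases before the start were found for 9 of the 10 genes, all but Cryab, and were searched on both strands. The 120 bases before the start are given, 5' to 3', for 5 genes with the Maf core TGCTGA in that stretch. Capitals mark TGCTGA or its reverse complement and the TATA box TATAAA, which cannot overlap each other.
Cryaa (chr17:31677811-31677930, plus strand): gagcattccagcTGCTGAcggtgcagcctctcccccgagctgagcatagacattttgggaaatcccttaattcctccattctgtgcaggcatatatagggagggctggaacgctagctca
Cryba1 (chr11:77725294-77725413, minus strand): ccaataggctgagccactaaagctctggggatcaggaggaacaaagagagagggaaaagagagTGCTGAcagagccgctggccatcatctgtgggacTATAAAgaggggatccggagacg
Cryba4 (chr5:112252519-112252638, minus strand): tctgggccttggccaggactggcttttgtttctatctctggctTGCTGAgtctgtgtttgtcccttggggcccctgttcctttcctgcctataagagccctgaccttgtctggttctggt
Crybb1 (chr5:112255700-112255819, plus strand): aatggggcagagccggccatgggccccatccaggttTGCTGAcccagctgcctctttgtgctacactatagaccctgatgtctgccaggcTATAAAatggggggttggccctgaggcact
Crybb3 (chr5:113081585-113081704, minus strand): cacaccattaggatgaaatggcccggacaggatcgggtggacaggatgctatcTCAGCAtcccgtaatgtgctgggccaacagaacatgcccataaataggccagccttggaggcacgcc
The Maf core lay in 8 of the 9 windows, against 16.1% of 32817 RefSeq promoters. It stood 108 bases before the start of Cryaa, 84 before that of Crybb1, 77 before that of Cryba4 (with 2 further matches upstream), 67 before that of Crybb3 and 57 before that of Cryba1. Further out, Cryba2, Crygs and Crygn held it 149, 200 and 228 bases before the start, and the Crybb2 window did not hold these letters. Of the 8 genes named above, all but Crybb2 thus held the core, and so did Crygn, while Cryab had no window to compare. TATAAA lay in 3 of the 9 windows (Cryba1, Crybb1 and Crygs) against 12.4% of all promoters, and the heat shock element core GAANNTTC in 0 of 9 against 6.69%. A match describes the letters in the window and not a bound site, and a link between these letters and the levels was not tested.

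Among the alpha crystallins, Cryaa, the lens-enriched chaperone on chromosome 17, had values of 1169.8, 8.5 and 0.9 scaled reads in control retina 1, 2 and 3. In Rodko retina 1, 2 and 3 it had 5.3, 199 and 3.4. Rods held 130.7, 0 and 0 scaled reads of Cryaa in the controls and 1, 19.3 and 0 in Rodko. A single library thus carried nearly all of the Cryaa signal in each group, and the genotypes overlapped in both fractions. Cryab, the broadly expressed chaperone on chromosome 9, was found in all 12 libraries. Its retinal values were 1051, 583 and 1151.2 scaled reads in controls and 783.8, 765.1 and 639.1 in Rodko. In rods it had 74.3, 34.3 and 102.3 scaled reads in controls and 62.9, 38.6 and 32.5 in Rodko. The highest over the lowest Cryab value within a group was between 1.23 and 2.98, whereas for Cryaa in control retina it was 1300.

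**Figure D1:**
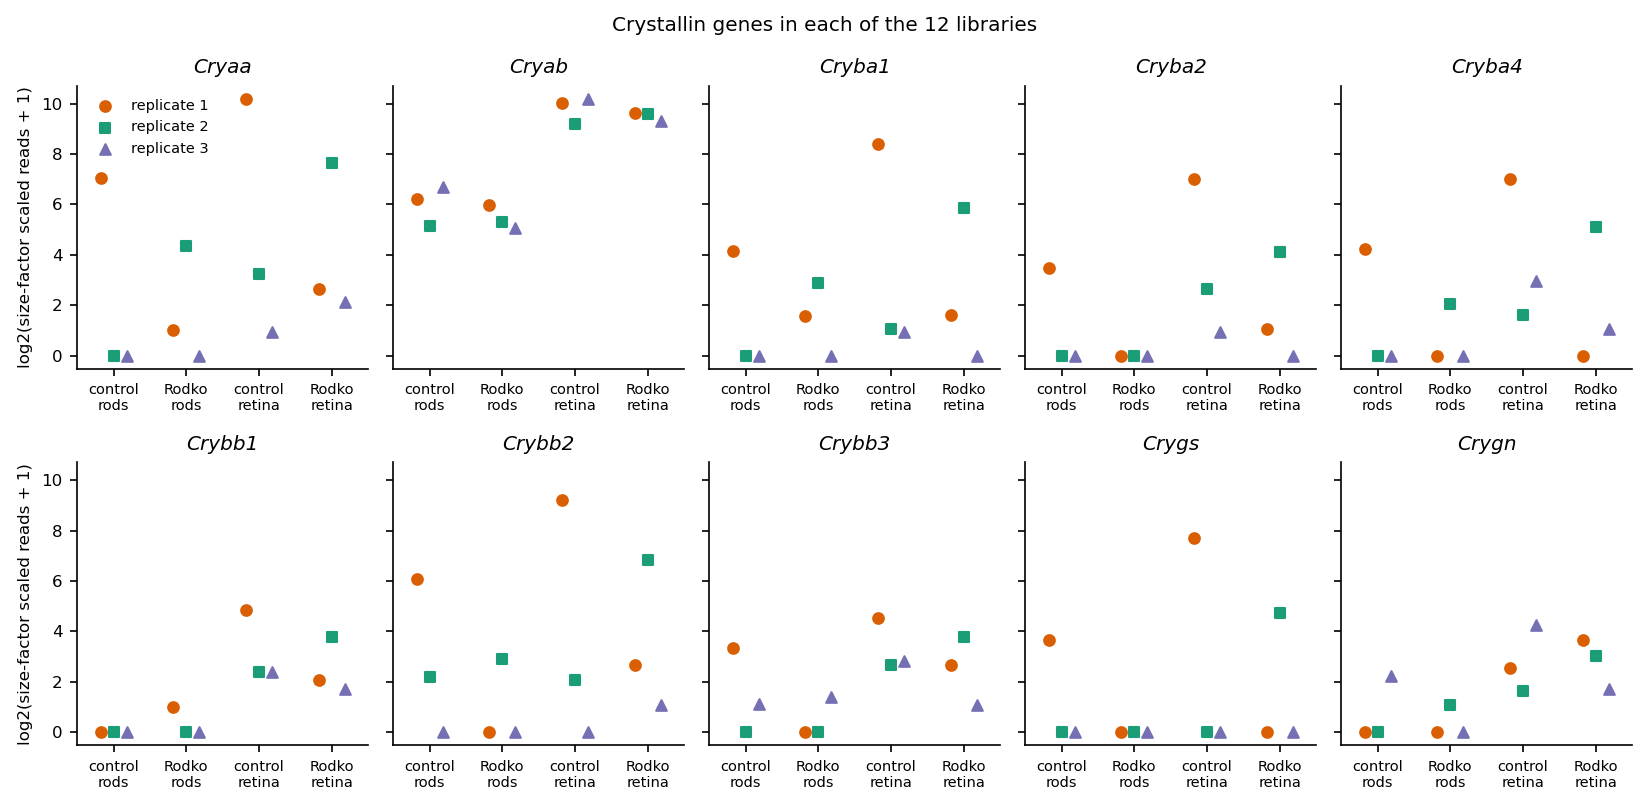
Scaled reads of the 10 crystallin genes on the scale log2(value + 1), 1 point per library, by genotype and fraction, with the colour and shape giving the replicate number. Replicate 1 of the controls and replicate 2 of Rodko were the high retinal libraries of 8 genes, whereas Cryab was present in all 12 libraries.

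The acidic beta crystallins, structural proteins of the lens, followed the Cryaa pattern. Cryba1, on chromosome 11, had 339, 1.1 and 0.9 scaled reads in control retina and 2.1, 57 and 0 in Rodko retina. Cryba2, on chromosome 1, had 126.6, 5.3 and 0.9 in control retina and 1.1, 16.3 and 0 in Rodko retina. For Cryba4, on chromosome 5, the values were 128.6, 2.1 and 6.9 in control retina and 0, 33.5 and 1.1 in Rodko retina. In every one of these genes control retina 1 stood highest, Rodko retina 2 came next and the other 4 retinal libraries stayed below 7 scaled reads. In rods Cryba1 had 16.7, 0 and 0 scaled reads in controls and 2, 6.4 and 0 in Rodko. Cryba4 had 17.9, 0 and 0 in control rods and 0, 3.2 and 0 in Rodko rods. Cryba2 was found in control rods 1 alone, at 10.3 scaled reads. It had 8 reads there and 0 in each of the other 5 rod libraries, control rods 2 and 3 included.

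The basic beta crystallins lie on chromosome 5 and differed in how strongly the same libraries stood out. Crybb2 had 587.3, 3.2 and 0 scaled reads in control retina and 5.3, 113 and 1.1 in Rodko retina. Crybb1 had 28.2, 4.3 and 4.3 in control retina and 3.2, 12.7 and 2.3 in Rodko retina. Crybb3 had 22.4, 5.3 and 6 in control retina and 5.3, 12.7 and 1.1 in Rodko retina. Control retina 1 was again the highest library for each gene, but Crybb1 and Crybb3 had reads in all 6 retinal libraries, and their highest values were 6.56 and 4.23 times the lowest in controls. In rods Crybb2 had 66.6, 3.6 and 0 scaled reads in controls and 0, 6.4 and 0 in Rodko, while Crybb3 had 9, 0 and 1.2 in controls and 0, 0 and 1.6 in Rodko. Crybb1 was at the limit of detection in rods, with 1 read over the 6 libraries, in Rodko rods 1.

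The gamma crystallins did not share a pattern. Crygs, a structural lens protein encoded on chromosome 16, was found in 3 libraries only, at 210.4 scaled reads in control retina 1, 25.3 in Rodko retina 2 and 11.5 in control rods 1. The other 5 rod libraries, control rods 2 and 3 included, had 0 reads against 9 in control rods 1. Crygn, a gamma crystallin on chromosome 5 also known from the retina, had 4.9, 2.1 and 18 scaled reads in control retina and 11.6, 7.2 and 2.3 in Rodko retina. Control retina 3 was its highest library, and in retina neither of the libraries that stood apart was the highest of its group. In rods Crygn had 3 reads in control rods 3 and 1 read in Rodko rods 2.

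Summed over the 8 genes, control retina held 149, 1.68 and 1.13 CPM and Rodko retina 1.24, 27.2 and 0.513 CPM. The rods held 15.2, 0.219 and 0.0718 CPM in controls and 0.235, 2.03 and 0.0902 CPM in Rodko. These genes made up 71.2% of the reads on all 10 crystallin genes in control retina 1 and 37.8% in Rodko retina 2, whereas Cryab took between 94.8% and 98.2% in the other 4 retinal libraries. Cryaa was 44.8% of the 8-gene total in control retina 1 and 42.4% in Rodko retina 2. The CPM of the 8 genes was 5.50 times higher in control retina 1 than in Rodko retina 2 (exact 95% counting interval 5.004 to 6.05). Among single genes the ratio was 8.21 (5.52 to 12.6) for Crygs, 3.80 (2.62 to 5.63) for Cryba4 and 2.20 (1.13 to 4.51) for Crybb1. These intervals compare 2 libraries and hold counting error alone, not the spread between samples. The corresponding ratio for Cryab was 1.36 (1.24 to 1.49).

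Within the libraries numbered control 1, rods held 10.2% (8.80 to 11.8) of the CPM of the 8 genes in retina, and within those numbered Rodko 2 they held 7.47% (5.09 to 10.6). For Cryab these shares were 7.17% (5.41 to 9.34) and 5.002% (3.48 to 6.98). Müller glia markers, as genes of other cells that remain in the pulldown, had median shares of 6.99% and 7.40%, pigment epithelium markers 11.1% and 8.02%, cone markers 39.6% and 43.4%, and rod markers 258% in both. The shares of the 8-gene sum and of Cryab lay below those of rod and cone markers. They were within a few percentage points of those of Müller glia and pigment epithelium markers, but most other lists were as near. Medians were 6.52% and 4.91% for bipolar, 6.12% and 4.90% for amacrine, and 4.74% and 5.12% for horizontal cell markers. Ganglion cell markers had 7.22% and 5.08%, endothelial 7.20% and 6.08%, microglia 6.43% and 4.38%, and red blood cell 15.2% and 8.08%. The likeness was thus not particular to Müller glia or pigment epithelium. Crybb3 stood apart at 40.6% (14.7 to 97.7) in control 1, from 7 reads in rods.

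Genes of the lens other than these members moved with the same libraries in part. Lens fibre genes other than crystallins summed to 213.3 scaled reads in control retina 1 and to 61.4 in Rodko retina 2, against 29.7 to 60.0 in the other 4 retinal libraries. Mip, the water channel of lens fibres, had 106.2 scaled reads in control retina 1 and between 8.4 and 23.5 in the other retinal libraries. Bfsp1 and Bfsp2, which form the beaded filaments of lens fibres, had 36.0 and 27.3 scaled reads in control retina 1, but Bfsp2 also had 25.7 in control retina 3. Lim2, an abundant lens membrane protein gene, was at 0 in all 12 libraries. The 6 lens gamma crystallins were highest in Rodko retina 2 (56.1 scaled reads in sum), with 26.3 in control retina 1, 17.1 in control retina 2 and at most 5.3 in the other retinal libraries, and Cryga and Crygf were at 0 throughout. The part of lens RNA in the crystallin values was not tested.

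Markers of other tissues next to the retina differed between libraries too. Pigment epithelium markers summed to 7813.8, 1855.6 and 11174.4 scaled reads in control retina and to 7960.5, 10430.9 and 3773.1 in Rodko retina, so both genotypes had their lowest sum in the library with the lowest Cryab (control retina 2 and Rodko retina 3). Hemoglobin and other red blood cell markers summed to 883.5 in control retina 1 and 781.3 in Rodko retina 2, against 1990.6 to 2786.1 in the other retinal libraries. Their part in the crystallin levels was not tested.

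**Figure D2:**
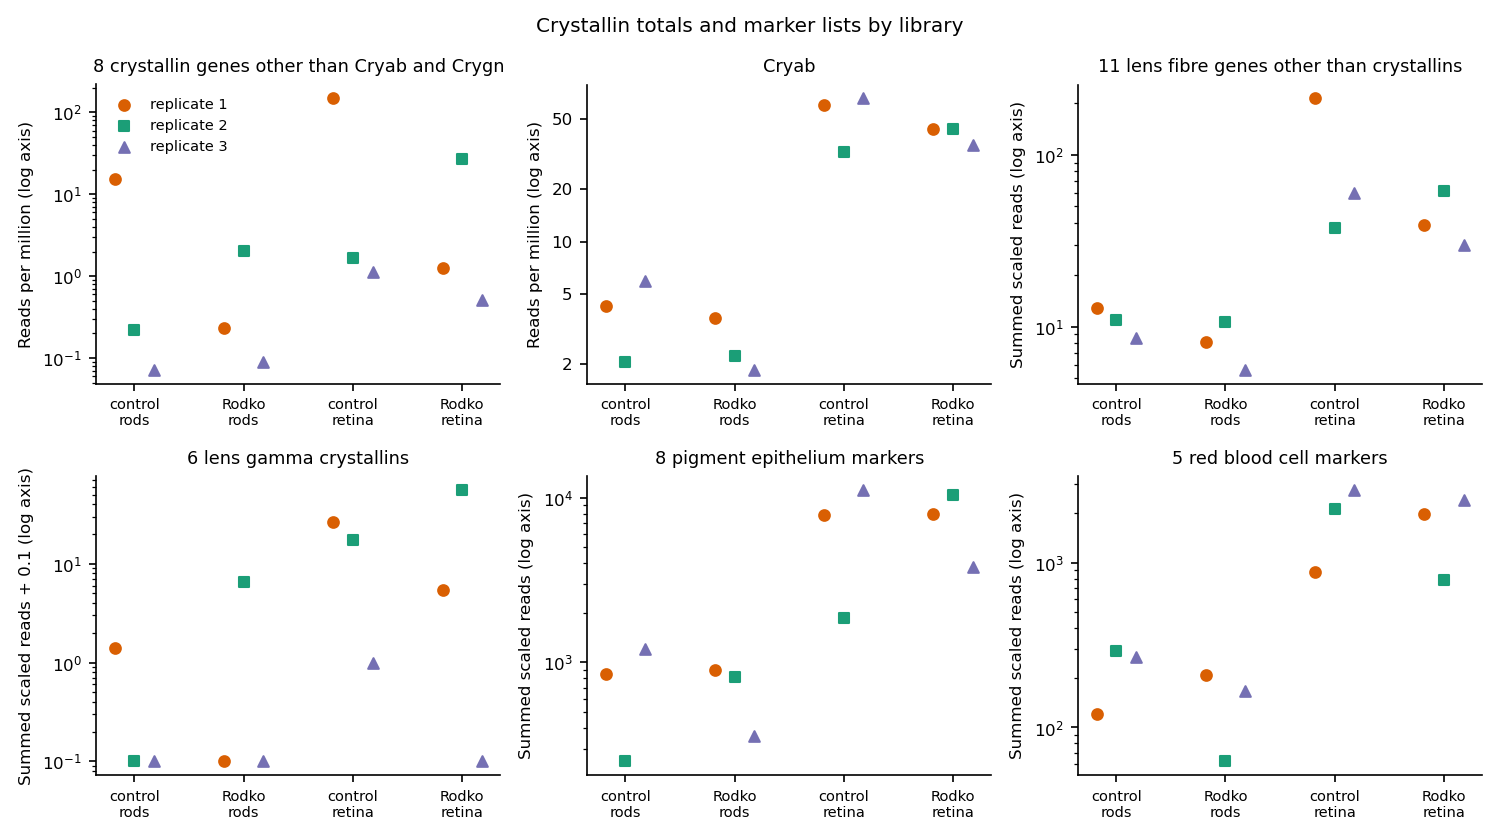
Each point is 1 library, with log vertical axes. The top row shows CPM of the 8 genes, CPM of Cryab and summed scaled reads of lens fibre genes, and the bottom row summed scaled reads of lens gamma crystallins (0.1 was added so that 0 can be drawn), pigment epithelium markers and red blood cell markers. Control retina 1 and Rodko retina 2 are highest for the 8 genes, at 149 and 27.2 CPM, and lowest of their groups for red blood cell markers.

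The first question was how far crystallin levels varied between replicates. The SD of log2(value + 1) within genotype was set beside the SD that the limma variance trend gives for genes of the same mean. In retina 7 of the 10 genes had an SD at least 2 times the trend, against 3.72% of 25590 genes tested. Cryaa had an SD of 4.03 where the trend gave 0.45, a ratio of 9.03, and Crybb2, Cryba1, Crygs, Cryba4 and Cryba2 had ratios between 3.93 and 7.25. Cryab had a ratio of 3.38, from an SD of 0.39 where the trend gave 0.12, so the gene present in all libraries also varied more than others at its level. Crybb1, Crybb3 and Crygn had ratios between 1.77 and 1.95. In rods 5 of the 9 genes tested reached this ratio (Cryaa, Crybb2, Cryba1, Cryba4 and Cryab), against 3.53% of 20658 genes. Without control 1 and Rodko 2 the count was 2 in retina and 1 in rods, and without control rods 1 alone it was 2 in rods.

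**Figure D3:**
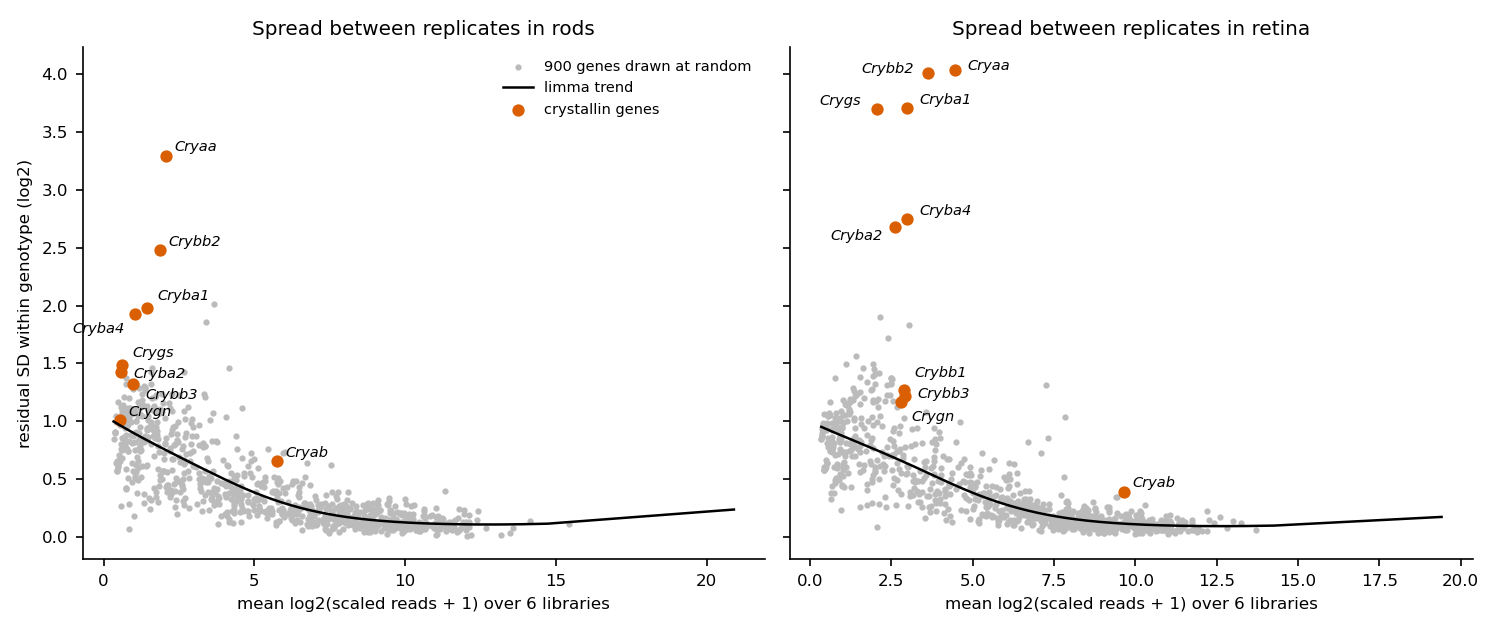
Residual SD within genotype against the mean, both on the scale log2(scaled reads + 1), in the 6 rod libraries and the 6 retinal libraries, with the limma trend as a line and 900 other genes as grey points. In retina Cryaa (SD 4.03), Crybb2, Cryba1, Crygs, Cryba4 and Cryba2 lie far above the trend, and Cryab (0.39) lies above it at a higher mean.

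The second question was whether loss of Pkm2 in rods changed crystallin mRNA. In rods 0 of the 9 members tested passed the threshold of 0.05 in limma, where 0.0194% of 20658 genes did, and 0 had an unadjusted p under 0.05, beside 4.77% of genes. In retina 0 of 10 passed, where 0.00391% of 25590 genes did, and again 0 had an unadjusted p under 0.05, beside 4.18% of genes. edgeR on the recovered reads also called 0 in each fraction, with 1 member under an unadjusted 0.05 in each (Crybb2 in rods and Cryba2 in retina), whereas DESeq2 gave an adjusted p for 0 of the 9 in rods and 4 of the 10 in retina, of which 0 passed. The genotypes overlapped for all 10 genes in both fractions, whereas they did not overlap for 9.89% of genes in rods and 9.29% in retina. For Cryab the log2 difference between Rodko and control was -0.57 in rods (SE 0.37, 95% interval -1.36 to 0.23, limma adjusted p = 0.932) and -0.29 in retina (SE 0.20, interval -0.72 to 0.13, limma adjusted p = 0.947). The exact two-sided permutation p of Cryab was 0.3 in rods and 0.4 in retina, where 3 libraries against 3 cannot go below 0.1. These intervals for Cryab leave room for a fall in Rodko of more than 1 log2 unit in rods. In retina the interval ends short of such a fall but does not exclude it. There the SD of Cryab was 3.38 times the trend, and limma draws the spread of each gene toward the trend.

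The other members had much wider intervals. Cryaa differed by -0.64 in retina (interval -4.68 to 3.39) and by -0.57 in rods (-3.98 to 2.85) on the log2 scale. Even these intervals are too narrow for its own spread, since limma draws the spread toward the trend and the retinal SD of Cryaa was 9.03 times the trend. Crybb2 differed by -0.24 in retina (-4.28 to 3.81) and Cryba2 by -1.80 (-4.62 to 1.03). The count tools gave larger retinal estimates, at -2.44 in edgeR and -2.51 in DESeq2 for Cryaa and at -2.23 and -2.31 for Crybb2, with edgeR adjusted p-values of 0.936 for both genes and none from DESeq2. Crygn, which did not follow the same libraries, differed by -0.01 in retina (-1.51 to 1.496). The median over the members was -0.72 in rods and -0.77 in retina, beside 0.01 and -0.004 for all genes. The estimates lay below 0 for 8 of 9 members in rods and 10 of 10 in retina, beside 48.9% and 51.0% of all genes tested. However, 8 of the members take their highest retinal value from the same control library and their signs are not separate observations. In rods Cryba2, Crygs, Crybb3 and Crygn passed the filter through controls alone, with Rodko means of 0, 0, 0.53 and 0.37 scaled reads. Their signs, and in part the median in rods, were therefore set by the filter. Crybb1, with its only rod read in Rodko, was below the filter. Without control retina 1 the estimate of Cryaa in retina was 2.06 and that of Crybb2 2.48, and without control 1 and Rodko 2 they were 0.31 and 0.83, so the direction turned with the library left out.

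**Figure D4:**
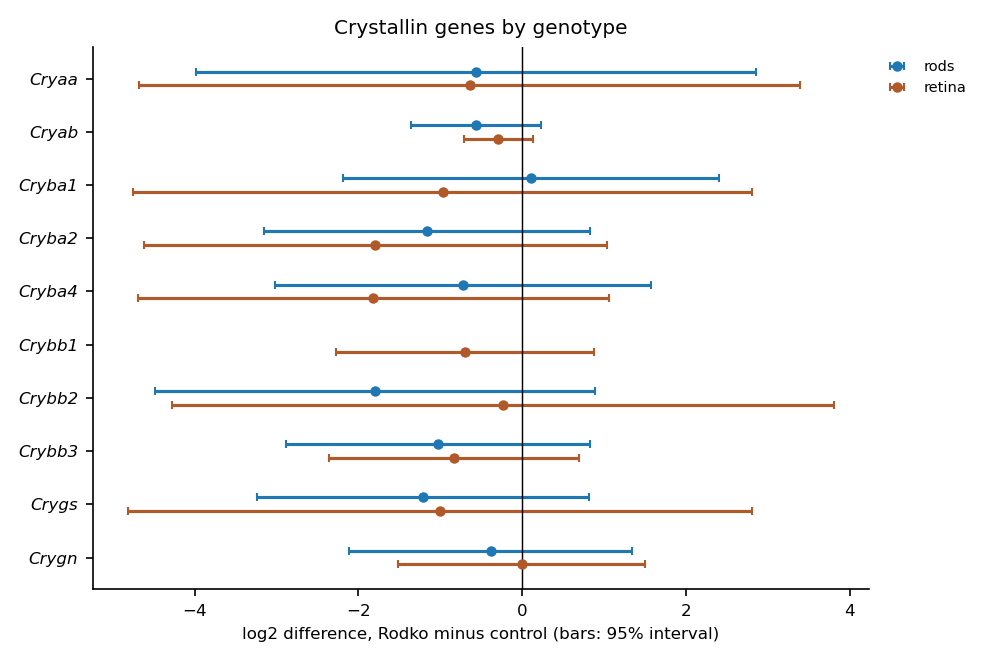
Log2 difference between Rodko and control for each crystallin gene in rods and in retina, with 95% intervals from limma, 3 libraries against 3. Each interval spans 0, and the narrowest are those of Cryab (-0.72 to 0.13 in retina), while those of Cryaa and Crybb2 in retina span about 8 log2 units. Crybb1 was below the filter in rods.

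The third comparison set rods against retina, with the recovered reads of all 12 libraries on a single scale (TMM). Rods were lower than retina for 4 of the 10 members in the limma fit of 4 group means, and 42.5% of all 25584 genes were lower, a share near that of the members. The median log2 difference of the 10 members was -1.75, where the median of all genes was -0.39. Cryab was lower by a log2 difference of -3.32 (SE 0.24, limma adjusted p = 4.4e-09). Relative to the median of all genes it was 7.62-fold lower. Crybb1 was lower by -2.47 (SE 0.49, limma adjusted p = 0.00031), Crygn by -1.98 (SE 0.56, limma adjusted p = 0.0050) and Crybb3 by -1.62 (SE 0.62, limma adjusted p = 0.0300). However, Crybb1 had 0 reads in control rods and 1 read in Rodko rods. It passed the filter through retina alone and could only come out lower in rods, here and in the other fits below. The size of its difference depends on the 1 added before the log. Crybb3 no longer passed (limma adjusted p between 0.0525 and 0.0873) when any of control rods 2, control rods 3, Rodko rods 1, Rodko rods 2, control retina 1, Rodko retina 1 or Rodko retina 2 was left out. Cryba2 passed without control rods 1 (-2.50) and without control retina 3 (-2.44), and Cryba4 without control rods 1 (-2.45). In bulk libraries such as these, fewer cells of a type and less RNA per cell cannot be told apart. Rods are polyribosome-bound RNA from a pulldown and retina is total RNA. A difference in ribosome binding and RNA of other cells in the pulldown therefore cannot be told apart from these either.

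For Cryaa the estimate was -2.05 with an interval from -5.43 to 1.33, and for Cryba1 -1.24 (-3.97 to 1.48). These members had a large spread between libraries that rods and retina of the same number shared. With the genotype and number of each library as a replicate block, 9 of the 10 members were lower in rods (43.0% of all genes were). Cryaa then had a limma adjusted p of 0.00014 (SE 0.39), Cryba4 0.0021, Cryba2 0.0032, Crybb2 0.0095 and Cryba1 0.0307, and Crygs stayed above the threshold at 0.0536. edgeR without the block also called 9 members (40.0% of all genes), with Crygs among them and Cryaa not. Without the 4 libraries that stood apart 5 of the 9 members tested were lower (Cryaa, Cryab, Cryba4, Crybb1 and Crygn), beside 35.7% of all genes. In that fit Cryaa, Cryba4 and Crybb1 had at most 1 read in any remaining rod library. They too could only come out lower in rods.

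**Figure D5:**
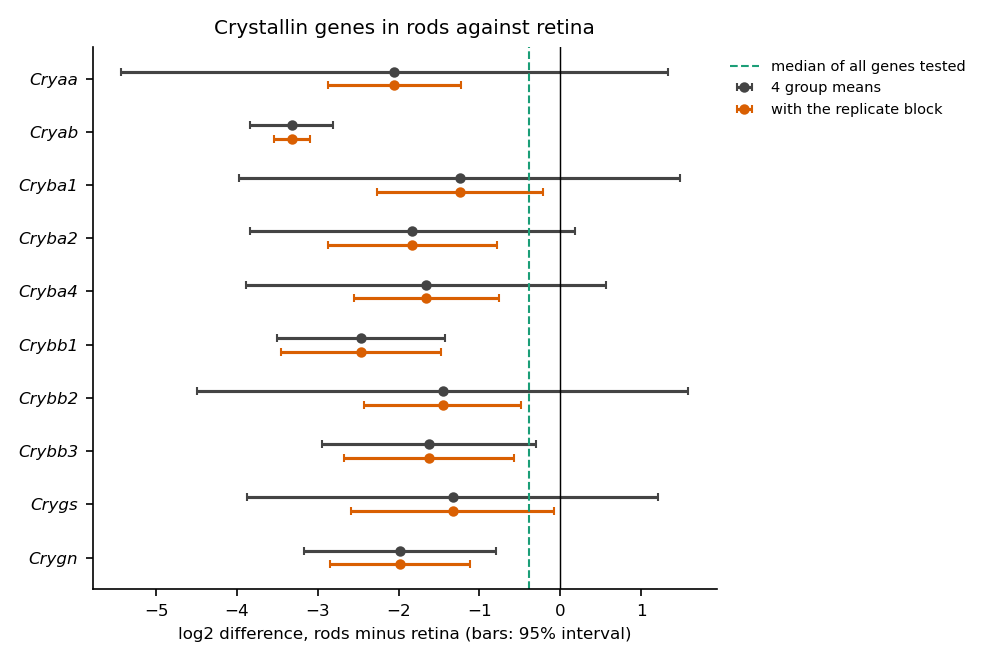
Log2 difference between rods and retina for each crystallin gene with its 95% interval, from limma with 4 group means and with the replicate block, and the median of all genes tested as a dashed line (-0.39). Cryab has the lowest value (-3.32), and the block narrows the intervals of the genes whose levels followed the library number, such as Cryaa.

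The genotype difference in rods minus that in retina was tested in the same fit, to ask whether the genotypes differed more in rods than in the whole tissue. No member and no gene of 25584 passed in limma (0% called, with 4.41% of all genes and 0 of the 10 members at an unadjusted p under 0.05), and edgeR also called 0 members. For Cryab this difference was -0.27 (SE 0.48, interval -1.30 to 0.76, limma adjusted p = 0.994). That interval comes from the fit without the replicate block and so does not use the pairing of rods and retina by number. With the block 0 members passed as well.

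Per length, the order of the members in control retina by mean TPM (reads per exon length, set to a common total, with exon lengths from GENCODE vM21) ran from Cryab at 107 ± 33.0 (SD, n = 3) through Cryaa at 31.7 ± 54.2, Crybb2 at 16.4 ± 28.1, Crygs at 13.4 ± 23.2 and Cryba1 at 11.9 ± 20.497. Cryba4 followed at 9.18 ± 14.3, Cryba2 at 6.23 ± 10.003, Crybb1 at 2.10 ± 2.34, Crygn at 1.77 ± 1.79 and Crybb3 at 0.816 ± 0.686 TPM. From Cryaa downward each neighbour differed from the next by less than its SD. The order below Cryab rests on control retina 1. In control retina 3 Crygn had 3.81 TPM, Cryba4 1.39, Crybb1 0.739 and Cryaa 0.0701, and Crybb2 and Crygs were at 0. In control retina 2 the 9 genes other than Cryab lay between 0 (Crygs) and 0.788 TPM (Cryba2). In control retina 1 Cryaa reached 94.4 TPM, within the range of Cryab over the retinal libraries (69.6 to 132). In rods Cryab was at 10.6 ± 4.97 TPM in controls and 6.64 ± 2.19 TPM in Rodko, and the values of both groups overlapped. Some reads may be shared with overlapping genes, since a use of strand in counting is not stated: Cryab overlaps Hspb2, Cryaa an antisense transcript, Cryba1 overlaps Nufip2 and Crybb2 a pseudogene. Hspb2 had at most 9.9 scaled reads in any library.

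As a description over the 12 libraries, with each gene's mean within its fraction removed on the log2 scale, Pearson's r among the 8 genes lay between 0.50 and 0.96 (28 pairs, median 0.87). Between Cryab and the 8 genes r lay between 0.13 and 0.45, and between Crygn and the 8 genes between -0.18 and 0.09. The points share libraries, and the libraries control 1 and Rodko 2 hold the high values. The 8 genes were set apart after these values were seen, so the contrast in r with Cryab and Crygn follows in part from that choice. Of 14097 other genes, the most alike to the mean of the members were Pdcd4 (r = 0.81), Gm5518 (0.78), Retsat (0.78), Cfap126 (0.78) and Prdm8 (0.78). The changes of these genes were small, such as 1451.3 scaled reads of Pdcd4 in control retina 1 against 1235.2 to 1300.2 in the other retinal libraries.

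Related gene families gave the surroundings of the members. Their counts stand beside 42.5% of all 25584 genes lower in rods and 27.1% higher, with a median of -0.39. Of the small heat shock protein genes other than alpha crystallins, 5 of 7 were lower in rods, such as Hspb8 (log2 difference -2.54) and Hspb1 (-2.65), and 1 was higher, Hspb6, with 3576.9 to 5440.9 scaled reads in rods (1.45 on the log2 scale). Their median was -1.77. Of the transcription factor genes of the lens crystallin programme, 11 of 14 were tested in this comparison. Among them 8 were lower in rods, including Pax6 (-2.84), Prox1 (-3.17) and Maf (-2.41), and 2 were higher, Nrl (1.98), the rod factor of the Maf family, and Hsf1 (0.18), which turned to -0.39 when libraries were scaled by total reads. The median of the 11 was -2.41. Foxe3 and Sox1, which act in lens development, were at 0 in all 12 libraries. Of the enzymes and other genes that carry a crystallin name or fold, 5 of 8 were lower in rods, with Crym at -3.64, Crybg3 at -1.34 and Cryzl1 at 0.11 (limma adjusted p = 0.0983), or -0.45 with scaling by total reads. Their median was -0.80. Lens fibre genes were lower in rods for 6 of the 8 tested, with Mip at -2.07 and a median of -1.69, and lens gamma crystallins for 1 of the 3 tested, Crygd at -1.34, with a median of -1.38. Several genes of these lists, such as Crygd, and Hspb2 among the small heat shock protein genes, had group means in rods of at most 0.4 scaled reads. They passed the filter through retina alone and could only come out lower in rods. No gene of these families passed a genotype comparison in limma, in rods, in retina or between them, where 0.0194%, 0.00391% and 0% of all genes did. In rods 2 of 5 small heat shock protein genes and 3 of 11 transcription factor genes tested had an unadjusted limma p under 0.05. The other families had 0 such genes in rods, and the share of all genes was 4.77%. Median log2 differences in rods were -0.74 for the small heat shock protein genes and -0.33 for the transcription factor genes. Hspb3, with means of 2.73 scaled reads in control rods and 0 in Rodko rods, passed the filter through controls alone.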

How the data were processed

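RNA of 12 mouse libraries was sequenced. The deposited table gives, for each library, a signal for every gene: its reads after division by the size factor of the library. The submitters' processing notes name CASAVA 1.8.2, HISAT2, DESeq2, edgeR and GRCm39 without roles. The counter, annotation and strand setting are not given in the sources used here. The smallest step of each column is 1 read, and dividing by it gave whole reads for 100% of the positive values within 0.1 read. The steps match median-of-ratios size factors within each fraction, so rods and retina were scaled apart, and the scaling does not correct for RNA of other tissues.

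Members, gene lists and tests were chosen with earlier results of these data known. The design provided for scaled values or counts, and the values called for limma. Genes named are Pkm, all 10 members, the 3 genes of each other list with the highest retinal mean, and the 5 genes most like the members' mean among those averaging 10 or more in both fractions. Maf, Foxe3, Sox1, Lim2, Cryga, Crygf, Hsf1, Hspb2 and Hspb3 were named after their values were seen.

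Genotypes were compared within each fraction by limma 3.58.1 (R 4.3.3) with a variance trend on log2(value + 1), for genes with a mean of at least 1 in 1 genotype. Fold changes are therefore on that scale and understate those of low genes. Because limma draws the spread of each gene toward the trend, intervals of genes above the trend are narrower than their own spread gives. Rods and retina were compared by limma, with a mean for each of the 4 groups, after TMM scaling of the reads across the 12 libraries. Adjustment over all genes followed Benjamini and Hochberg, with 0.05 as the threshold. The fits were tested on simulated data. Alternatives were edgeR (4.0.16) or DESeq2 (1.42.0) on whole reads, other filters, a pseudocount of 0.1, other scalings, a replicate block, and each library left out. Deviations of rod and retina libraries of the same number correlated (r from 0.20 to 0.34 in controls and 0.14 to 0.25 in Rodko, all other numbers below 0), so numbers were taken to pair them. Ratios of CPM carry exact binomial counting intervals at 95%. Gene lengths (GENCODE vM21, by identifier) were found for 91.9% of the genes, and promoters came from RefSeq (GRCm38.p6). Python 3.11.15 with pandas 2.3.3, numpy 2.4.6, scipy 1.17.1 and matplotlib 3.10.9 was used.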

Additional observations from a re-analysis of the deposited data

How the results depend on the processing

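The count of members past the threshold between genotypes stayed at 0 in rods and in retina, and at 0 for the difference between the fractions, under each alternative run. Some alternatives could call few members or none. DESeq2 gave an adjusted p for 0 of the 9 members in rods and 4 of the 10 in retina. At least 10 reads in every library left 1 member to test in each fraction. Without control 1 and Rodko 2, 4 members were tested in rods. Rods against retina gave 4 members, and 2 with control libraries only, 1 with at least 10 reads in every library (a filter that Cryab alone passed), 9 in edgeR, 9 with the replicate block, and 3 to 6 when 1 library was left out. The median of all genes was -0.39 there, -0.74 with scaling by total reads, -0.75 with deposited values, -0.61 with a pseudocount of 0.1, -0.52 in edgeR and 0.25 with at least 10 reads in every library, and under each of these the members tested stayed below it. Without control retina 1, Cryba1, Crybb2 and Crygs lay above the median (log2 differences of -0.02, -0.11 and -0.08 against -0.41), and without the 4 libraries that stood apart Cryba1 did (-0.34 against -0.40).

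Members with an SD at least 2 times the trend numbered 5 in rods, 2 to 6 when 1 library was left out and 1 without control 1 and Rodko 2, and 7 in retina, 8 to 9 when 1 library was left out and 2 without those libraries. The direction of a genotype difference turned in rods for Cryaa with a pseudocount of 0.1 (0.24) and for Cryba1 in edgeR (-0.90 with TMM and with RLE) and DESeq2 (-0.98). In retina it turned for Crybb2 (0.64) and Crygn (0.014) with a pseudocount of 0.1, and for Cryaa (0.31) and Crybb2 (0.83) without control 1 and Rodko 2. With 1 library left out, log2 differences in rods ranged from -1.85 to 1.78 for Cryaa, -0.59 to 1.49 for Cryba1 and -1.43 to 0.69 for Cryba4. In retina they ranged from -2.58 to 2.06 for Cryaa, -2.65 to 1.499 for Cryba1, -1.33 to 0.12 for Crybb1, -2.12 to 2.48 for Crybb2, -2.58 to 1.57 for Crygs and -0.60 to 0.71 for Crygn. The Cryab difference between the fractions ranged from -0.70 to 0.073. None of these passed the threshold, and the cause was not tested.

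Control and Rodko libraries of the same number did not deviate together (r from -0.13 to 0.07 in rods and -0.23 to -0.002 in retina), so a replicate block there joins libraries that share only a number. It called 0 members and moved the count over all genes from 4 to 8 in rods and from 1 to 0 in retina. The depth limits the low members: a level below 3 reads in a library cannot be told from 0.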
